A study of Mus musculus with 6 samples.

Results

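miR-31 was followed through both arms of its hairpin, mmu-miR-31-5p and mmu-miR-31-3p, in mouse 3T3-L1 cells, an embryonic fibroblast line that turns into fat cells in culture. The arms were picked by name among the mouse probes, as 2 of 1247 miRNAs on the array, because earlier results from these arrays had placed both lower with interleukin-6 (IL-6). Their IL-6 differences are therefore given as a description without a test. All 6 samples were taken on day 8 of differentiation, which was induced with isobutyl-methylxanthine, dexamethasone, insulin and rosiglitazone in every sample. The 4 control samples had no IL-6, and the 2 IL-6 samples had recombinant IL-6, an inflammatory cytokine, at 1 ng/ml from induction on, renewed daily. The study asked which miRNAs differ in fat cells formed in its presence. Each sample was labelled with Cy3 and read on 1 array, and the labels do not say whether samples in a group were cultured separately. Errors and p-values therefore cover only the variation among the samples at hand, and that variation may be technical.

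A miRNA is cut from a hairpin RNA as a pair of short strands, one from each arm, and a strand bound by an Argonaute protein finds messenger RNAs mainly through its seed, bases 2 to 8. The 5p strand of miR-31 is the better studied one. It has been described as restraining fat cell formation from mesenchymal cells, with the adipogenic transcription factor gene Cebpa among its reported targets, and it is also studied in bone formation, epithelia and inflammation.

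The mature strands and the hairpin, from RefSeq (GRCm38.p6), show how the arms differ in seed and where they sit in the precursor. Capitals mark the seed in the first 2 lines and the arms in the third.
miR-31-5p: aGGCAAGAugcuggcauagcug
miR-31-3p: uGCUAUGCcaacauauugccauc
Mir31 hairpin: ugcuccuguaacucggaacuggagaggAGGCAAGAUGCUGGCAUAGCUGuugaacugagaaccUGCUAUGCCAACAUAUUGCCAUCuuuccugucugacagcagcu
Both members were found among 1738 mature entries of that table, and no other entry had the seed of either arm, so miR-31 has no seed family among them. The arms do not share a seed with each other. The reverse complement of the 5p arm and the 3p arm share a run of 9 letters, gctatgcca, along which they pair in the hairpin.

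The hairpin lies on the minus strand at chr4:88910557-88910662, with the 5p arm at chr4:88910614-88910635 and the 3p arm at chr4:88910577-88910599. It falls within the bounds of the long non-coding RNA gene Gm49890 (chr4:88909854-88942042), whose strand and exons the gene table does not give. The nearest protein-coding gene among its immediate neighbours was Ifne, an interferon gene, 30.356 kb away, and the tumour suppressor gene Cdkn2a was 363.811 kb away. The nearest other miRNA gene on the chromosome, Mir491, was 788.432 kb away, so Mir31 had no close miRNA partner.

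Each arm was read by 2 probes, shown here because the readings rest on them and because each leaves part of the seed uncovered. Capitals mark the probe bases that face the seed.
A_54_P1322, for miR-31-5p: cagctatgccagcaTCT
A_54_P1323, for miR-31-5p: cagctatgccagcaTC
A_54_P3474, for miR-31-3p: gatggcaatatgttgGCA
A_54_P3475, for miR-31-3p: gatggcaatatgttgGCAT
The probes match the 3′ end of each arm. The longer 5p probe faces bases 6 to 22 of the miRNA and the shorter one bases 7 to 22, while the 3p probes face bases 6 to 23 and 5 to 23. Against all other mature miRNAs of the table, the closest ungapped match had 4 mismatches for the 5p probes (miR-1941-5p) and 6 and 7 mismatches for the 3p probes (let-7b-3p). Hybridisation to such partial matches was not tested.

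Both arms were well above background on every array. Of 480 spots over the 4 probes and 6 arrays, 18 were left out as outliers, every other one was well above background, and none was saturated. The spots of a probe on 1 array had a coefficient of variation between 3.58% and 13.4%, with a median of 7.09%. After scaling, which sets each array by the 75th percentile of the 502 probes detected on all arrays, miR-31-5p lay at least 181 and miR-31-3p at least 43.9 intensity units high, against a detection floor of 6.25.

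Before that scaling, the arms were about as bright with IL-6 as without. The background-subtracted intensity of miR-31-5p in controls 1 to 4 was 229, 248, 166 and 216, and with IL-6 it was 238 (array 1) and 188 (array 2). Its group means were 215 ± 35.2 (SD, n = 4) and 213 ± 35.9 (SD, n = 2), so the groups overlapped fully. For miR-31-3p the intensities were 57.9, 61.8, 41.4 and 47.9 on the controls and 54.1 and 45.5 with IL-6. Its means, 52.2 ± 9.28 (SD, n = 4) and 49.8 ± 6.10 (SD, n = 2), again differed by less than the spread between arrays. Control array 3 was the dimmest for both arms and control array 2 the brightest.

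The 75th percentile of the detected probes, by which the arrays were scaled, had a higher mean with IL-6. In intensity units it was 347, 396, 248 and 343 for the controls, with a mean of 334 ± 61.7 (SD, n = 4). With IL-6 it was 440 and 369, with a mean of 405 ± 50.01 (SD, n = 2). The log2 difference of this percentile, 0.29, was about as large as the miR-31 differences that follow, which therefore compare miR-31 with the other detected miRNAs of the same array and not its amount in the cells. The geometric mean signal of 7 spike-in control probes, for RNAs of the array maker's spike-in kit, was 0.04 (log2) higher with IL-6 and lay between 2054 and 2446 over the 6 arrays. The number of miRNAs detected per array ranged from 268 to 313.

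Relative to the other detected miRNAs, miR-31-5p was lower on both IL-6 arrays than on any control. Its scaled intensity in controls 1 to 4 was 236, 224, 238 and 224, and with IL-6 it was 194 (array 1) and 181 (array 2). The control arrays thus lay within 1.07-fold of each other, and the higher IL-6 array was 13.5% below the lowest control. On the log2 scale the control mean was 7.85 ± 0.05 (SD, n = 4) and the IL-6 mean 7.55 ± 0.07 (SD, n = 2). The difference, -0.30, is 1.23-fold lower with IL-6. Such separation, both IL-6 arrays below every control, was found for 21.7% of the 299 miRNAs tested, and nothing is read from it for miR-31, which was chosen by it.

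miR-31-3p, the strand less often studied, showed the same order. Its scaled intensity was 59.6, 55.7, 59.6 and 49.8 in the controls, and with IL-6 it was 43.9 and 44.0. Both IL-6 arrays lay below all controls, by 11.8% of the lowest one, and that lowest control, array 4, stood nearest to them. The log2 mean of the controls was 5.81 ± 0.12 (SD, n = 4) and that with IL-6 was 5.46 ± 0.0015 (SD, n = 2), so the difference was -0.35, or 1.28-fold lower. The small IL-6 spread comes from 2 arrays that gave nearly the same value and is a poor guide to the true one.

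**Figure D1:**
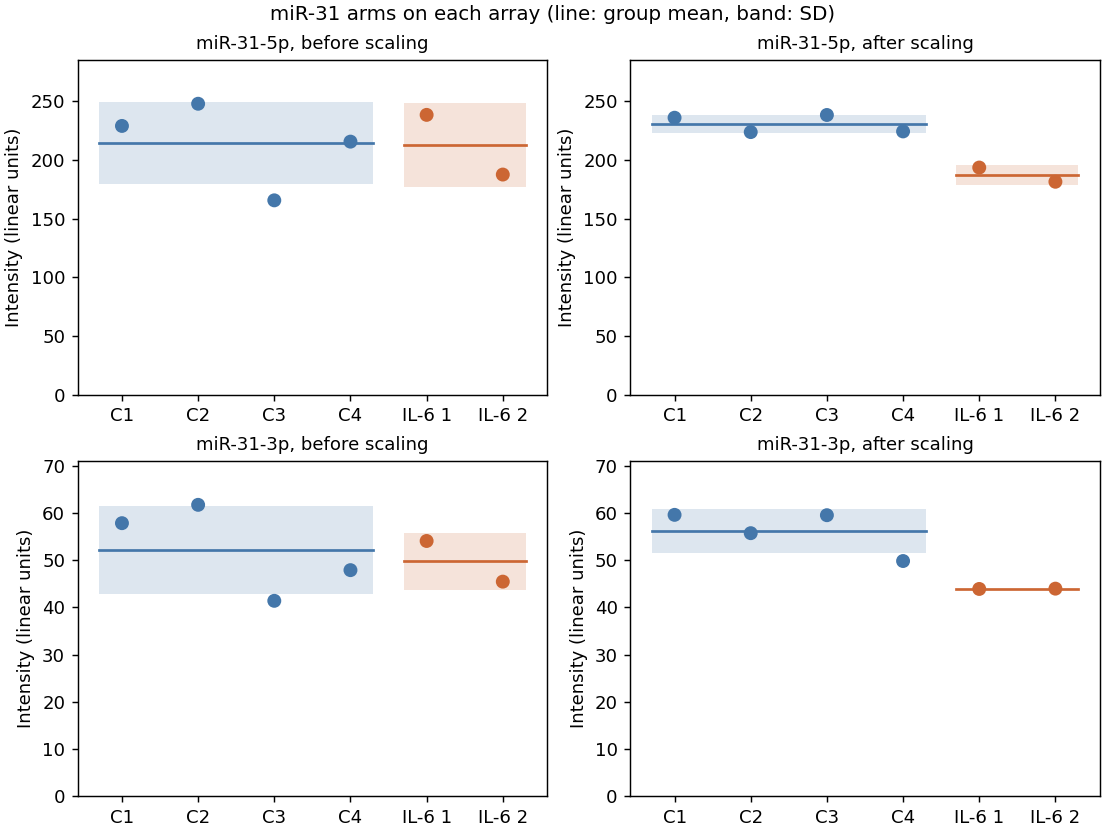
Intensity of miR-31-5p (top) and miR-31-3p (bottom) on each array in linear units, before (left) and after (right) scaling to the detected probes, with points for arrays (C1 to C4 are controls), lines for group means and bands for the SD. Before scaling the groups overlap, with 5p means of 215 and 213, and after it both IL-6 arrays lie below every control for both arms.

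Setting each control array against each IL-6 array gave 8 differences per arm. All were below 0, which follows from the separation by which miR-31 was chosen, so nothing is read from their sign. The differences ran from -0.39 to -0.21 (log2) for miR-31-5p and from -0.44 to -0.18 for miR-31-3p. Arrays of 1 slide were used throughout. Slide rows cannot be told apart from treatment, because all controls lay in row 1 and both IL-6 arrays in row 2, but slide columns 3 and 4 held an array of each group. The difference of miR-31-5p was -0.30 within column 3 and -0.31 within column 4. That of miR-31-3p was -0.44 within column 3 and -0.18 within column 4, the column of control array 4.

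The probes of an arm gave like differences. For miR-31-5p the longer probe differed by -0.32, from 8.17 ± 0.04 (log2, SD, n = 4) to 7.85 ± 0.09 (SD, n = 2), and the shorter by -0.27, from 7.44 ± 0.06 to 7.17 ± 0.03. For miR-31-3p the longer probe differed by -0.37, from 6.00 ± 0.11 to 5.64 ± 0.02, and the shorter by -0.33, from 5.58 ± 0.14 to 5.25 ± 0.03. For each of the 4 probes, the highest IL-6 array was below the lowest control. The choice of miR-31 favours this separation, and the shorter probe of each arm lies within the sequence of the longer. The probes are therefore no independent readings, and nothing is read from their likeness. Before scaling, the same 4 probes differed by -0.02, 0.02, -0.07 and -0.04.

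**Figure D2:**
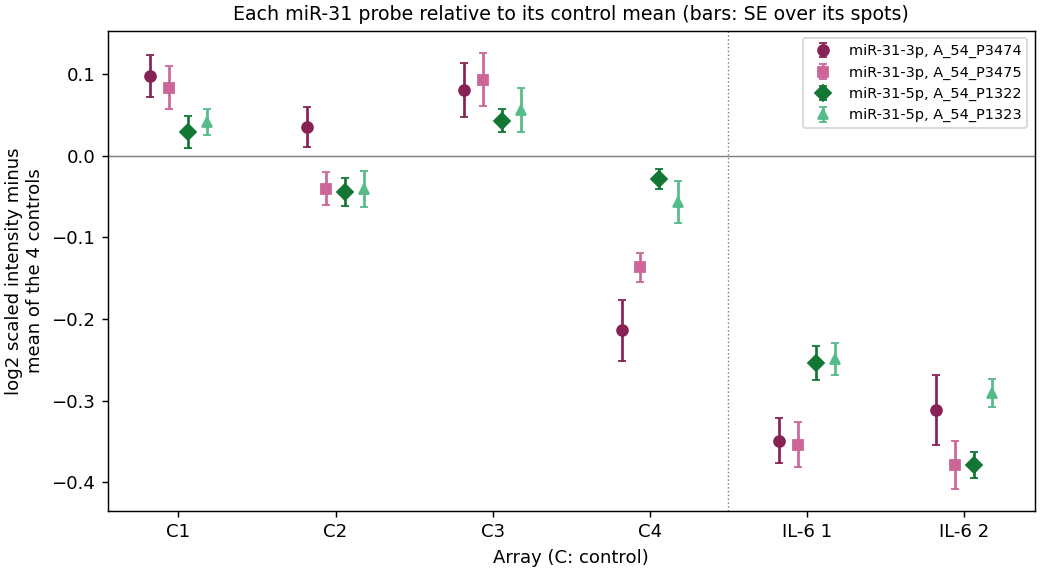
Scaled log2 intensity of each of the 4 miR-31 probes on each array (C1 to C4 are controls), relative to the mean of its 4 controls, with bars for the standard error over its spots on that array. Each of the 4 probes is lower on both IL-6 arrays than on any control array, as the choice of miR-31 favours. On control array 4 the 3p probes lie lower than the 5p probes.

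The arms were also set against each other array by array. Taking each arm relative to its own mean over the 6 arrays, the profiles differed by a root mean square of 0.07 (log2), against a median of 0.14 over the 34 hairpins with both arms tested (rank 4 from the most alike). The choice of 2 arms that are both lower with IL-6 favours a small distance, so nothing is read from this rank. Over the 4 control arrays alone, each arm relative to its mean over them, the distance was 0.08. By nearness there, the 3p arm ranked 107 of 298 from 5p, and the 5p arm 66 of 298 from 3p. The choice also used the control values, set against those with IL-6, so these ranks are no independent check. Over the 6 arrays, each of which also sets the shared scaling, 15 of the 298 other tested miRNAs were nearer to miR-31-5p than its own 3p arm. The IL-6 differences of the arms were 0.05 apart, less than the SD of miR-31-3p between control arrays.

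miR-31 was not alone in having both arms lower. The difference was below 0 for both arms in 17 of 34 hairpins, miR-31 among them. In 6 of 34 hairpins (17.6%) both IL-6 arrays lay below all controls for both arms, a count that holds miR-31 by its choice. The others were miR-30a, whose arms differed by -0.20 and -0.27, miR-378a (-0.20 and -0.19), miR-542 (-0.24 and -0.17), miR-652 (-0.21 and -0.18) and miR-324 (-0.11 and -0.14). miR-30a and miR-378a are tied to fat cell differentiation. In 1 hairpin (2.94%), miR-466i, both arms lay above all controls, by 0.94 and 1.03.

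**Figure D3:**
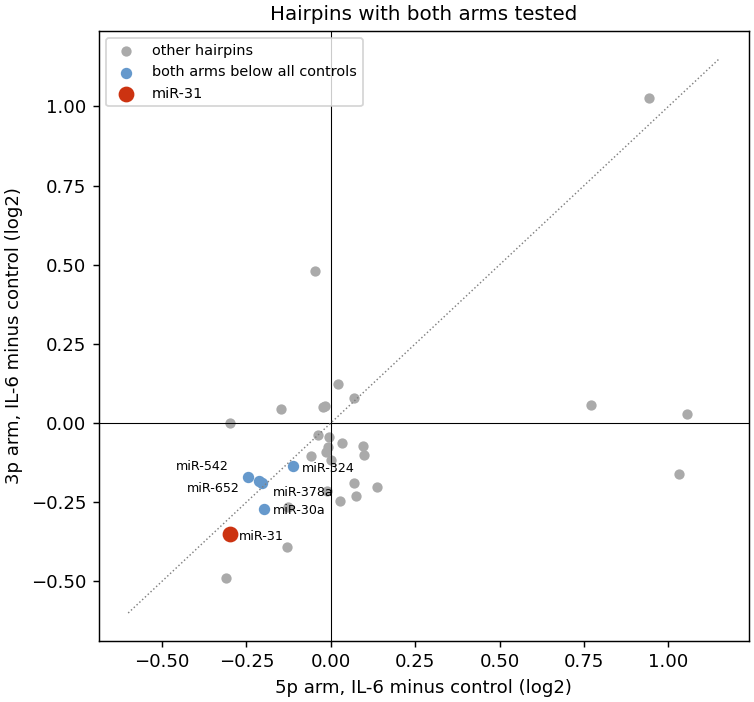
Log2 difference (IL-6 minus control) of the 5p arm against that of the 3p arm for the 34 hairpins with both arms tested, with a dotted line where they are equal. miR-31 (-0.30 and -0.35) is lowest of the 6 hairpins with both arms below all controls, and miR-466i lies far above 0 for both arms.

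Among the 299 miRNAs tested, miR-31-3p had the 5th lowest difference and miR-31-5p the 12th lowest, where the median was -0.02. The choice of miR-31 by these same values favours low ranks, so nothing is read from them. They also moved with the processing. For miR-31-5p, 3.68% of miRNAs had a lower difference, and 15.4% under quantile normalization. For miR-31-3p these shares were 1.34% and 0.669%. The IL-6 arrays were both below every control for 65 miRNAs (21.7%) and both above for 39 (13%). This balance follows the scaling: without scaling the counts were 0 below and 77 above, and with spike-in scaling 0 and 80. In the limma fit across all 299, with Benjamini-Hochberg adjustment, 0 miRNAs (0%) were called lower at an adjusted p under 0.05. The 1 called higher (0.334%) was miR-5117-5p, which is named after its value was seen. It was detected on the 2 IL-6 arrays only and was tested through them. Its control values, 2.64 to 2.86 (log2), lay at or near the floor. The higher calls numbered 34 without scaling, 36 with spike-in scaling and 23 without control array 4. They numbered 0 with only miRNAs detected on all arrays, and 0 with either the replicate number or the slide column as a block. At an unadjusted p under 0.05 the fit across all 299 had 36 lower (12%) and 32 higher (10.7%). The spread of miR-31-5p was small, with a pooled SD within groups of 0.05 (log2), rank 16 from the lowest of 299, where the median was 0.13. That of miR-31-3p was 0.11, at rank 114. The choice of miR-31 by separate groups favours a small spread, so nothing is read from these SD ranks.

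**Figure D4:**
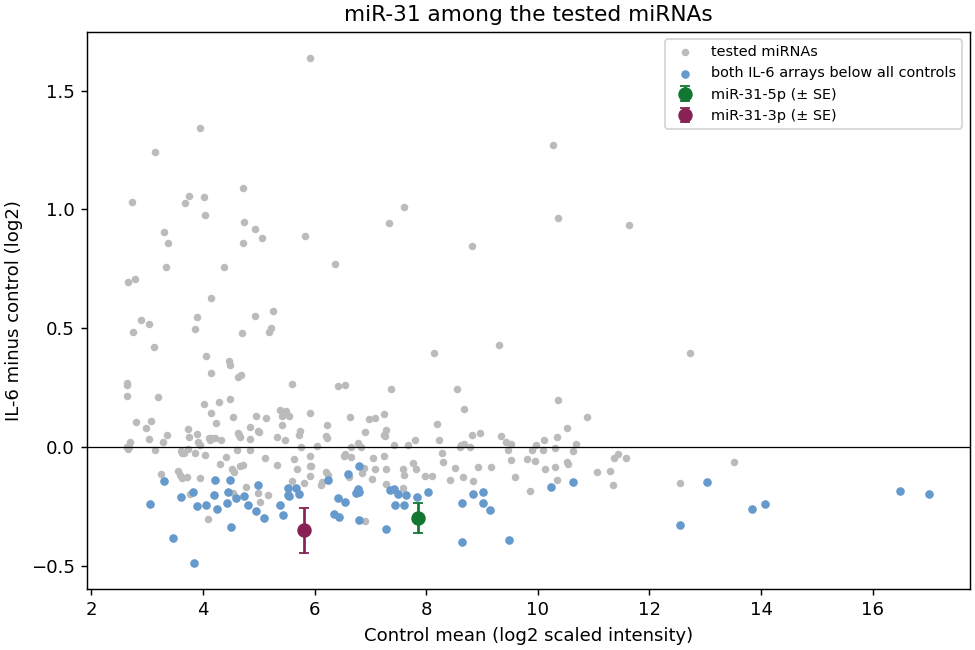
Log2 difference (IL-6 minus control) of the 299 tested miRNAs against their control mean on the log2 scale, with bars for limma's standard error on the 2 miR-31 arms. Both arms lie among the lowest differences, at -0.30 and -0.35, as their choice favours, while the differences above 0 reach much larger sizes.

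The miRNAs with profiles most like miR-31-5p over the 6 arrays were miR-28a-5p, miR-5100, miR-27b-3p, miR-143-3p and miR-212-3p, at root mean square distances between 0.03 and 0.06 (log2), where the median over 298 was 0.17. miR-28a-5p followed it most closely, with a difference of -0.30, from 5.10 ± 0.08 (log2, SD, n = 4) to 4.80 ± 0.07 (SD, n = 2). miR-27b-3p, which restrains fat cell differentiation and has Pparg among its targets, differed by -0.23, and miR-143-3p, which favours it, by -0.39. miR-212-3p, a miRNA induced by the cAMP-responsive factor CREB, differed by -0.24, and miR-5100 by -0.24. For miR-31-3p the nearest were again miR-28a-5p, then miR-744-5p, miR-192-5p, miR-28c and miR-331-3p, at distances between 0.06 and 0.07 where the median was 0.20. In every one of these miRNAs the IL-6 arrays were both below the lowest control, a property that nearness to miR-31 favours by itself. Over the 4 control arrays alone, the distances of the 5 nearest to miR-31-5p ranked between 17 and 58 of 298. Those of the 5 nearest to miR-31-3p ranked between 2 and 56, with miR-744-5p at 2 and miR-28c at 3.

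miR-31 was set beside 4 lists of miRNAs with roles it shares or opposes. Of all 299 tested miRNAs, 165 had a difference below 0 and 134 above. In the list of those that restrain fat cell differentiation, 18 of 25 entries were tested. Without miR-31-5p, the other 17 had a median difference of -0.03, with 12 below 0 and 5 above, and limma called 0 lower and 0 higher (2 lower and 1 higher at an unadjusted p under 0.05). Besides miR-31-5p, groups were separate and lower for 4 members (23.5%, near the 21.7% of all miRNAs tested). Among these were miR-155-5p, which immune stimuli induce (-0.35 ± 0.08 SE), miR-27b-3p as above and miR-145a-5p, from the same cluster as miR-143 (-0.18 ± 0.08 SE). miR-709 was separate and higher (0.43 ± 0.10 SE). The brightest members, let-7a-5p and miR-22-3p, differed by -0.03 and -0.07.

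Of the miRNAs that favour fat cell differentiation, 22 of 25 entries were tested, with a median of -0.12, 19 below 0 and 3 above, and limma called 0 in either direction (4 lower and 0 higher unadjusted). Groups were separate and lower for 6 (27.3% against the 21.7% of all miRNAs), with miR-143-3p at -0.39 ± 0.08 SE, miR-378a-5p at -0.20 ± 0.07 SE, miR-320-3p at -0.20 ± 0.09 SE and miR-30a-5p at -0.20 ± 0.06 SE. The brightest, miR-21a-5p and miR-103-3p, differed by -0.15 and -0.11. The median of all tested miRNAs moved to 0.27 without scaling, so the signs in these lists hold only relative to the other detected miRNAs.

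In bone cell differentiation, where miR-31 is also studied, 15 of 23 listed miRNAs were tested. The other 14 had a median of -0.12, with 10 below 0 and 4 above, and limma called 0 (1 lower and 0 higher unadjusted). Groups were separate and lower for 3 of these 14 (21.4%, near the 21.7% of all tested). These were miR-30a-5p at -0.20, and miR-27a-3p and miR-24-3p, neighbours in a cluster, at -0.17 and -0.15. The brightest members, miR-3960 and miR-23a-3p, differed by -0.15 and -0.16. Of the miRNAs tied to inflammatory signalling through NF-kB or STAT3, the factor that IL-6 activates, 18 of 24 were tested. The other 17 had a median of -0.10, with 13 below 0 and 4 above, and limma called 0 (2 lower and 0 higher unadjusted). Groups were separate and lower for 5 of them (29.4%, against 21.7% of all tested), among them miR-155-5p and miR-212-3p as above and miR-301a-3p at -0.17 ± 0.09 SE. miR-21a-5p, which STAT3 can induce, differed by -0.15 ± 0.07 SE with separate groups.

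The labelled cell type was checked against marker miRNAs. All 7 fat cell and all 6 mesenchymal marker miRNAs were detected on all 6 arrays. miR-31-5p, the miRNA studied here, is among the latter and adds nothing to the check. No undifferentiated cells were among the samples, so this detection does not tell fat cells from their precursors. None of the 5 blood cell, 4 muscle and 4 endothelial, neural and liver markers on the array was detected on any array. Of 7 epithelial markers, 6, among them those of the miR-200 family, were detected on no array. miR-205-5p was detected on all 6 arrays, at 6.22 ± 0.07 (log2, SD, n = 4) in controls and 6.31 ± 0.10 (SD, n = 2) with IL-6. A longer epithelial list of 11, which adds the miR-183 cluster, had 4 tested members with a median of -0.25. Of these miR-96-5p differed by -0.40 ± 0.14 SE and miR-182-5p by -0.20 ± 0.07 SE, both with separate groups, and limma called 0 (2 lower and 0 higher unadjusted). Their part in the miR-31 result was not tested. The lower miR-31 values hold relative to the other detected miRNAs. Before scaling, the arms differed by -0.0048 (5p) and -0.06 (3p). In these samples of whole cultures, fewer cells with miR-31, less miR-31 per cell and more of the other miRNAs cannot be told apart.

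The differences of both arms stayed below 0 under every processing tried, but did not keep their size or the separation of the groups. The arms were chosen for this sign and every processing used the same arrays, so nothing is read from it. Without scaling the differences were -0.0048 for miR-31-5p and -0.06 for miR-31-3p, and with scaling to the spike-ins -0.04 and -0.09. Groups overlapped in all 4 cases, and limma's SE, between 0.23 and 0.28, was larger than each of these differences.

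**Figure D5:**
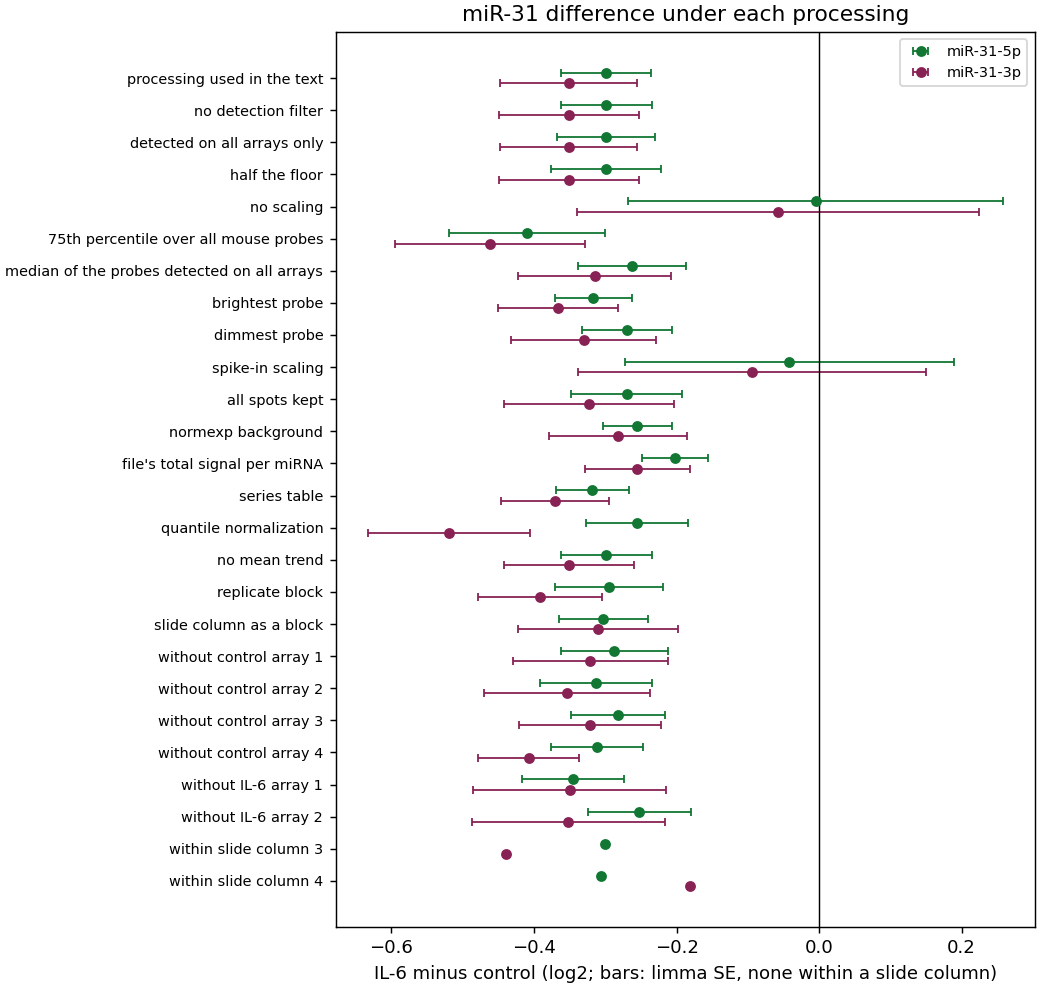
Log2 difference (IL-6 minus control) of miR-31-5p and miR-31-3p under the processing used in the text and each alternative, with bars for limma's standard error (none within a slide column, where each group is 1 array). The values lie between -0.52 and -0.18 except without scaling and with spike-in scaling, where they lie near 0 with wide bars.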

How the data were processed

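The authors deposited scanner intensity values per spot (Agilent Feature Extraction 10.10.1.1, per the submitters' processing notes), with a fitted background subtracted per the file headers, and spot flags, a further deposited unit. Their series table of intensity values equalled the scanner's total probe signal (largest difference 0) and served as an alternative. Each array held 49880 mouse spots, and 2164 control spots were left out of the tests. Outlier and uneven spots were left out, spots averaged per probe, arrays scaled by the 75th percentile of the 502 probes detected on all arrays (a share of at least 0.5 of spots well above background), probes averaged per miRNA, a floor of 6.25 set and log2 taken. The 299 miRNAs detected on all arrays of a group were fitted with limma 3.58.1 (R 4.3.3, mean trend, two-sided, Benjamini-Hochberg, threshold 0.05), without covariates. On simulated data with independent errors, the fit called 92.3% of miRNAs changed 2-fold and 0.83% of unchanged ones. Smaller differences, such as those of miR-31, were not simulated, nor were shifts shared by a whole array. The rate therefore does not tell how often such differences would be called. The number of arrays limits the precision. Nearest miRNAs were the 5 with the smallest root mean square distance between profiles centred over the 6 arrays. List members named are those with separate groups, at most 4 a direction, and the 2 brightest. The members, the lists and the tests were chosen with earlier results of these data known. Alternatives changed scaling, background, probe summary, flags, floor, filter, variance model, blocks and arrays left out. Spike-in scaling and the dimmest probe were added after seeing the data.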

Additional observations from a re-analysis of the deposited data

How the results depend on the processing

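Over 25 alternatives each, the difference of miR-31-5p ran from -0.41 to -0.0048 and that of miR-31-3p from -0.52 to -0.057. All were below 0, the sign for which the arms were chosen. Beyond 1 pooled SD from the values reported, miR-31-5p moved to -0.0048 without scaling, -0.042 with spike-in scaling, -0.41 with the 75th percentile over all mouse probes and -0.20 with the scanner's total gene signal. miR-31-3p moved to -0.057, -0.094 and -0.46 under the first 3 of these, to -0.52 with quantile normalization and to -0.18 within slide column 4. Leaving out 1 array gave -0.35 to -0.25 for miR-31-5p and -0.41 to -0.32 for miR-31-3p. The count of miRNAs called lower was 0 in every setting but one, 8 without control array 4, where the cause was not tested, so leaving out 1 array gave 0 to 8. The count with both IL-6 arrays below all controls was 65, and 0 without scaling, 0 with spike-in scaling, 39 with scaling by the median of the detected probes, 40 with all spots kept and 26 with the scanner's total gene signal. Leaving out 1 array gave 66 to 95, where fewer arrays have to be separate. With the replicate number as a block the differences were -0.29 and -0.39, and 0 miRNAs were called lower. Deviations of same-numbered arrays correlated at 0.0582 and -0.337. The deviations of 2 IL-6 arrays mirror each other, so this check cannot settle whether the numbers pair arrays, and they were treated as unpaired. The arms were well above background on all arrays, and of the choices tried the scaling moved miR-31-5p most.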

Other observations

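The probe positions listed in the scanner files for miR-31 do not match the RefSeq positions of its arms. The longer 5p probe is listed at chr4:88910589-88910605, while the bases it matches lie at chr4:88910614-88910630. The longer 3p probe is listed at chr4:88910624-88910642 and its bases lie at chr4:88910577-88910595. Each listed position is the mirror image of the RefSeq one within the hairpin. The same held for all 506 probes on the minus strand compared (1 listed RefSeq locus, and a match to the mature sequence), whereas all 782 such probes on the plus strand were listed at their RefSeq position.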
